A study of Mus musculus with 11 samples.

Results

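The 9 genes described here mark lymphatic vessels or make them grow: Vegfc, Vegfd, Flt4, Prox1, Lyve1, Pdpn, Ccl21a, Reln and Mmrn1. They were taken by name from a table of 19962 measured target genes, and all 9 had a probe. Lymphatic vessels drain fluid and immune cells from tissue, and in the mammary gland they run through the stroma around ducts and blood vessels. The growth factors VEGF-C and VEGF-D bind the receptor VEGFR3 (encoded by Flt4) on lymphatic endothelial cells, whose identity is set by the transcription factor PROX1. The CCL21 chemokine made by these cells draws immune cells that carry its receptor CCR7 into the vessels.

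The tissue was mammary gland from naive mice, fixed and frozen, in which cells that express or once expressed the matrix protein periostin carry the green reporter ZsGreen. Areas were chosen beside structures stained for podoplanin, the protein encoded by Pdpn and used as a lymphatic vessel marker, or for smooth muscle actin (SMA), which marks ducts and blood vessels. Only ZsGreen-positive segments were collected. By their labels, regions 2, 3, 4, 7, 8 and 11 were Pdpn-adjacent (6 regions), while 1, 5, 6, 9 and 10 were SMA-adjacent (5 regions). The glands came from 3 mice in all. The labels give neither the mouse of a region nor the animals' age and strain. With 5 or 6 regions a group from 3 animals, some regions must share a mouse, and every p-value over regions below can be too small. All regions carried the reporter lineage and none was treated. Because only the reporter-positive segment was read, lymphatic endothelium enters the counts only so far as it lay inside that segment, and how much did was not measured.

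Total counts ran from 22757 to 2271664 in Pdpn-adjacent and from 760761 to 3086323 in SMA-adjacent regions. Regions 2, 3 and 11, all Pdpn-adjacent, held fewer than 100000 counts each and are called shallow here, and the other 8 are called deeper. A negative-control probe matches no mouse transcript, so the geometric mean of the 210 such probes in a region measures its background, and a level over background is a count divided by that mean. A probe was above the floor where its count exceeded the mean of the negative probes plus 2 SDs on the log2 scale. Each of the 9 genes has 1 probe, and probes differ in how well they bind, so a level places a gene against background and does not rank transcripts by abundance.

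Most values of the 9 genes lay under the floor. Across the 99 pairs of gene and region, 8 were above the floor (8.08%), against 12.0% of all pairs of endogenous probe and region. Of these 8 pairs, 6 were Vegfc, 1 was Ccl21a in region 9 and 1 was Mmrn1 in region 11. None of the 99 exceeded the highest negative probe of its region, which 4.08% of all pairs did. With the lower floor of 1 SD the order turned, at 52 of 99 pairs (52.5%), against 31.3% of all pairs. In the 3 shallow regions 19 of 27 counts stood at 1, the lowest value in the table, so those regions say little about any of the 9 genes. In the 8 deeper regions the counts ran from 5 to 218 in Pdpn-adjacent and from 19 to 275 in SMA-adjacent regions.

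**Figure D1:**
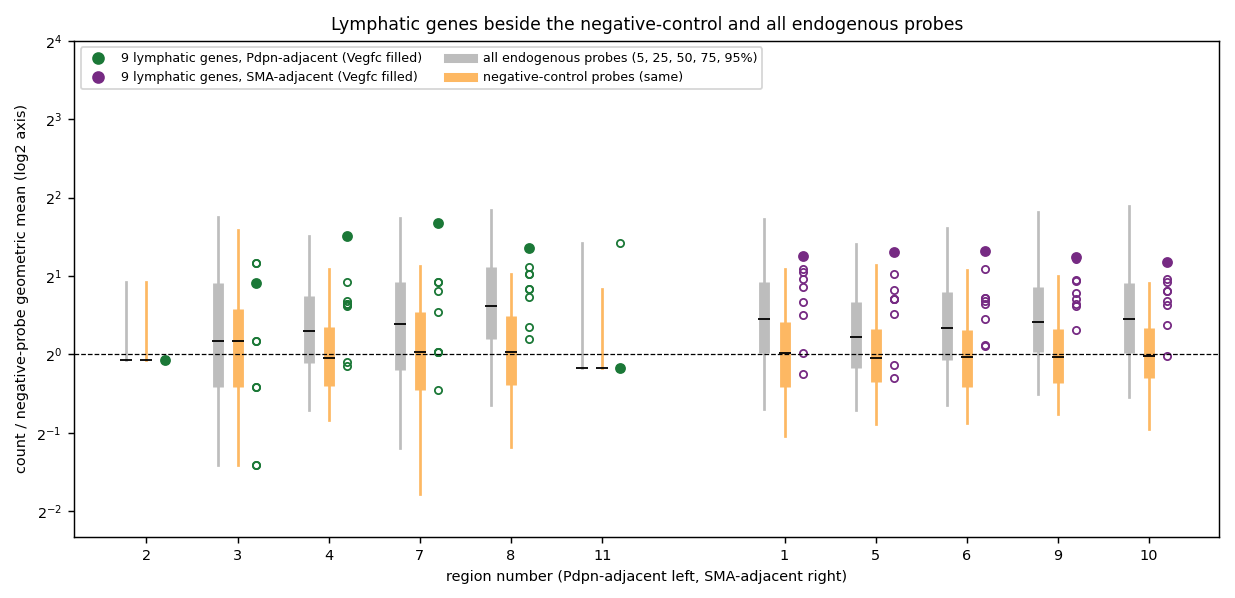
Counts divided by the geometric mean of the negative-control probes (log2 axis) in each region, Pdpn-adjacent left and SMA-adjacent right; circles are the 9 lymphatic genes with Vegfc filled, and bars give the middle 50% and lines the 5th to 95th percentile of all endogenous probes (grey) and negative probes (orange). Most circles lie within the range of the negative probes, and Vegfc is the uppermost circle in all 8 deeper regions.

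Vegfc, which encodes the chief lymphatic growth factor, stood highest over background of the 9. Its counts were 1, 5, 218, 22, 20 and 1 in Pdpn-adjacent regions 2, 3, 4, 7, 8 and 11, against 54, 275, 160, 204 and 89 in SMA-adjacent regions 1, 5, 6, 9 and 10. Over background these were 0.952, 1.88, 2.84, 3.20, 2.56 and 0.889 in the Pdpn-adjacent regions, against 2.39, 2.47, 2.49, 2.36 and 2.26 in the SMA-adjacent regions. On levels over background the 3 deeper Pdpn-adjacent regions lay above all 5 SMA-adjacent regions and the 3 shallow ones lay below them. On counts scaled to a common library size with TMM, regions 4 and 7 also lay above all SMA-adjacent regions, at 93.8 and 102. Region 8, at 66.4, lay below SMA-adjacent regions 1, 5, 6 and 9 (71.2, 84.5, 79.4 and 70.5) and above region 10 (65.8). The median endogenous probe was also higher over background in region 8 (1.53 times) than in SMA-adjacent regions (1.17 to 1.37 times). The Vegfc level averaged 2.05 ± 0.98 over the 6 Pdpn-adjacent regions (mean ± SD), against 2.39 ± 0.09 over the 5 SMA-adjacent ones.

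Vegfc did not differ between the groups past the threshold. Its log2 fold change, Pdpn-adjacent minus SMA-adjacent, was 0.15 with a 95% interval of -0.23 to 0.53 (edgeR adjusted p = 1.00). Its sign differs from that of the plain difference of means over regions, for a cause that was not tested. That difference was -0.39 on the log2 scale of levels over background (exact permutation p = 0.411, adjusted p = 0.865 over all probes). With the 8 deeper regions alone that difference was 0.25 (exact permutation p = 0.0357, the smallest that 3 regions against 5 allow). The adjusted p over all probes was then 0.918. On levels over background 1.58% of all probes likewise had every deeper Pdpn-adjacent region above every SMA-adjacent one. Because regions share mice, these p-values can be too small. The edgeR log2 fold change in the 8 deeper regions was 0.24, with an interval of -0.16 to 0.65.

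The precision behind these values differed between the regions. A 95% counting interval placed the Vegfc level of region 7 between 2.01 and 4.85 and that of region 8 between 1.56 and 3.95, both of which include every SMA-adjacent value. Region 4 had an interval of 2.48 to 3.25, which excludes 4 of the 5 SMA-adjacent values. Intervals of this kind cover counting error only. Among the 5 SMA-adjacent regions the level of Vegfc varied by 3.91% (coefficient of variation), against a counting error of 9.44%. A spread over 5 regions is itself uncertain. Luminal epithelial markers averaged 2.96, 1.40 and 3.32 times background in Pdpn-adjacent regions 4, 7 and 8, against 1.38 to 1.83 times in SMA-adjacent regions, and their part in the Vegfc values was not tested.

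Vegfd encodes the second ligand of VEGFR3. It had 0.952, 2.25, 1.54, 1.46, 1.79 and 0.889 times background in Pdpn-adjacent regions 2, 3, 4, 7, 8 and 11, against 1.95, 1.76, 2.13, 1.93 and 1.90 times in SMA-adjacent regions 1, 5, 6, 9 and 10. The highest Pdpn-adjacent value came from shallow region 3 and rests on 6 counts. Regions 2, 4, 7 and 11, which are 4 of the 6 Pdpn-adjacent regions, lay below every SMA-adjacent one. Of these, regions 2 and 11 are shallow and had a count of 1 each. How many of all probes had as many regions below was not computed. The log2 fold change was -0.26 with an interval of -0.58 to 0.06 (edgeR adjusted p = 0.925), and the exact permutation p was 0.0736 (adjusted p = 0.738 over all probes), in regions of which some share a mouse. No region put Vegfd above the floor.

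Flt4 encodes the receptor of both ligands, and its probe did not rise over background. It had 0.375, 0.926 and 1.28 times background as its lowest, median and highest level in Pdpn-adjacent regions, against 1.02, 0.810, 1.09, 1.24 and 1.29 times in SMA-adjacent regions 1, 5, 6, 9 and 10. In the deeper regions its count exceeded between 83 and 135 of the 210 negative probes in Pdpn-adjacent and between 58 and 163 in SMA-adjacent regions. The groups overlapped, with a log2 fold change of -0.16 and an interval of -0.50 to 0.19 (edgeR adjusted p = 1.00, exact permutation p = 0.277).

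Prox1, the transcription factor of lymphatic identity, was under the floor in all 11 regions and below background in Pdpn-adjacent regions 2, 7 and 11. It had 0.728, 1.04 and 2.04 times background as its lowest, median and highest level in Pdpn-adjacent regions, against 1.59, 1.43, 1.60, 1.54 and 1.60 times in SMA-adjacent regions 1, 5, 6, 9 and 10. The lowest and the highest value both came from Pdpn-adjacent regions of similar depth, region 7 with 5 counts and region 8 with 16. The log2 fold change was -0.03 with an interval of -0.36 to 0.29 (edgeR adjusted p = 1.00, exact permutation p = 0.108).

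Lyve1 encodes a hyaluronan receptor of lymphatic endothelium that some tissue macrophages also carry. It had 0.750, 1.26 and 2.04 times background as its lowest, median and highest level in Pdpn-adjacent regions, against 2.08, 1.63, 1.56, 1.63 and 1.75 times in SMA-adjacent regions 1, 5, 6, 9 and 10. The deeper regions of the groups overlapped, at 1.56 to 2.04 in Pdpn-adjacent and 1.56 to 2.08 in SMA-adjacent regions. The log2 fold change was -0.05 with an interval of -0.37 to 0.27 (edgeR adjusted p = 1.00, exact permutation p = 0.182). The 12 macrophage markers averaged 1.62 ± 0.61 times background over the 6 Pdpn-adjacent regions (mean ± SD), against 2.31 ± 0.43 times over the 5 SMA-adjacent ones. The first mean includes the shallow regions. Deeper regions 4, 7 and 8 had 1.72, 1.30 and 2.74 times, against 1.79 to 2.95 times in SMA-adjacent regions. The part of macrophages in the Lyve1 values was not tested.

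Podoplanin staining guided the choice of regions, so a difference in Pdpn transcript would be no independent finding. Pdpn transcript was above the floor in 0 of 11 regions, so it cannot check the labels either. It had 0.375, 0.985 and 1.79 times background as its lowest, median and highest level in Pdpn-adjacent regions, against 1.81, 1.63, 1.65, 1.56 and 1.95 times in SMA-adjacent regions 1, 5, 6, 9 and 10. In the deeper Pdpn-adjacent regions 4, 7 and 8 it had 123, 7 and 14 counts, or 1.60, 1.02 and 1.79 times background. Regions 4 and 8 thus lay within the range of the SMA-adjacent regions and region 7 lay below it. The transcript was not higher beside podoplanin-stained structures, and it was above the floor in 0 of 11 regions. The stain marked structures beside the areas, while the counts come from the reporter-positive segment. Whether that bears on the Pdpn values was not tested.

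Ccl21a encodes the lymphatic chemokine CCL21, in several near-identical copies that its probe cannot tell apart. It had 0.889, 1.61 and 2.25 times background as its lowest, median and highest level in Pdpn-adjacent regions, against 1.41, 1.64, 1.37, 2.33 and 1.75 times in SMA-adjacent regions 1, 5, 6, 9 and 10. Only region 9, with 201 counts, put it above the floor. The log2 fold change was -0.08 with an interval of -0.44 to 0.29 (edgeR adjusted p = 1.00, exact permutation p = 0.446).

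Reln and Mmrn1 encode secreted glycoproteins that lymphatic endothelium is known to make. Reln had 0.750, 1.42 and 2.17 times background as its lowest, median and highest level in Pdpn-adjacent regions, against 2.12, 2.03, 1.65, 1.91 and 1.55 times in SMA-adjacent regions 1, 5, 6, 9 and 10. Its log2 fold change was -0.01 with an interval of -0.37 to 0.35 (edgeR adjusted p = 1.00, exact permutation p = 0.190). Mmrn1 had 0.939, 1.07 and 2.67 times background as its lowest, median and highest level in Pdpn-adjacent regions, against 0.840, 0.909, 1.07, 1.73 and 0.989 times in SMA-adjacent regions 1, 5, 6, 9 and 10. The highest value of each group stood apart, and the Pdpn-adjacent one was region 11 with 3 counts. Region 9, the SMA-adjacent one, had 149 counts, more than 193 of the 210 negative probes and short of the floor. The log2 fold change of Mmrn1 was -0.16 with an interval of -0.59 to 0.28 (edgeR adjusted p = 1.00, exact permutation p = 0.610).

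**Figure D2:**
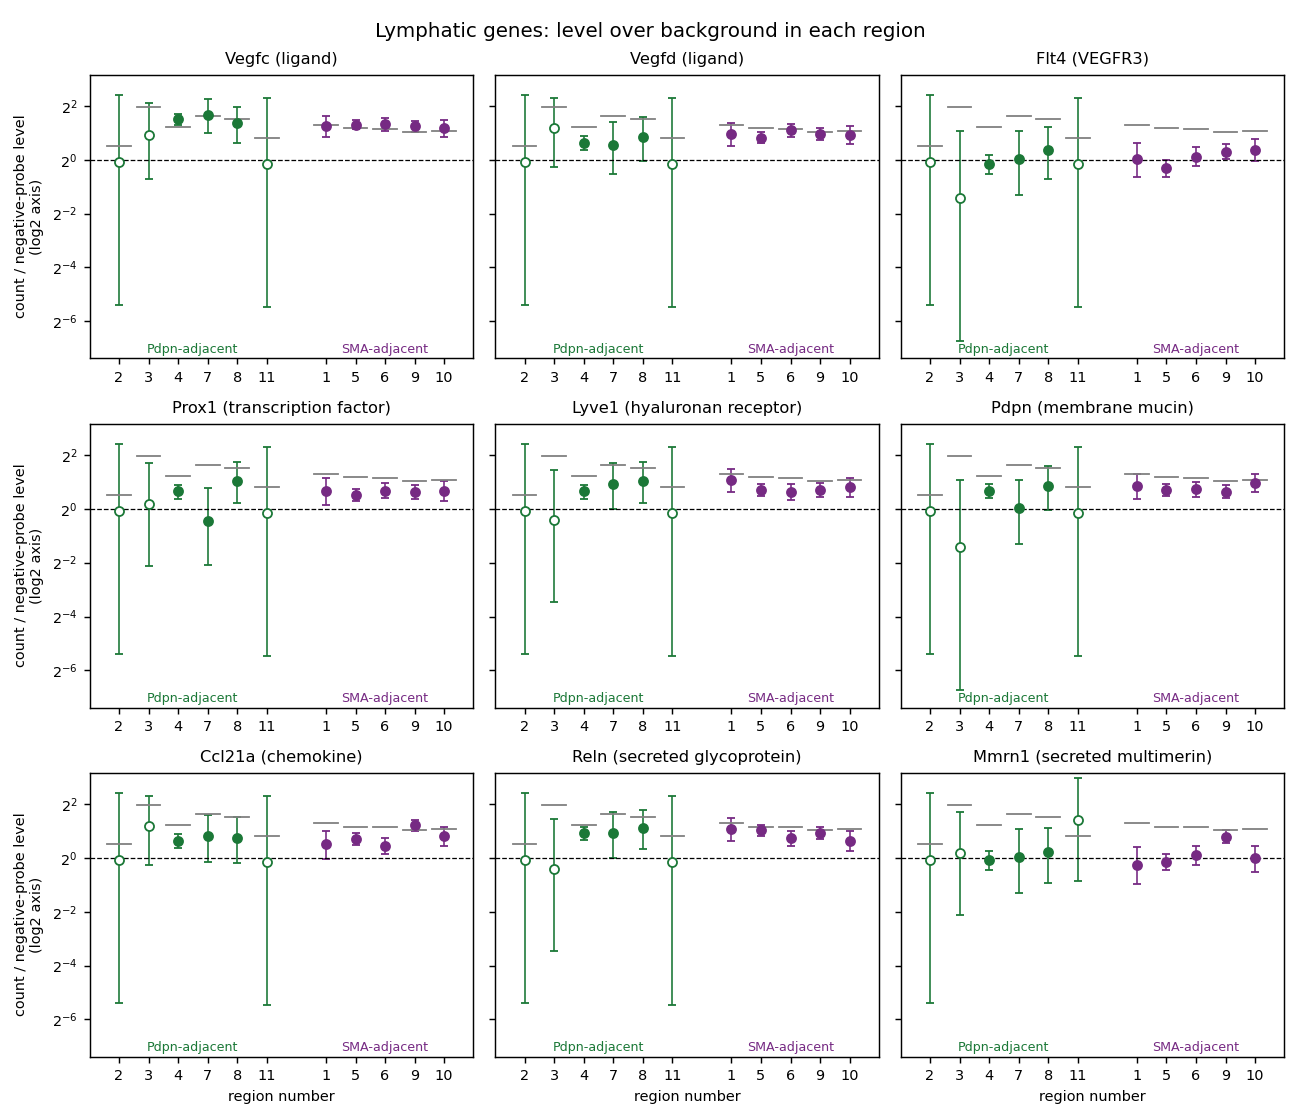
Level over background (log2 axis) of each of the 9 genes by region, Pdpn-adjacent left and SMA-adjacent right; open circles are the 3 regions with a total under 100000, error bars are 95% counting intervals, grey dashes the floor of each region and the dashed line background. Vegfc crosses the floor in 6 of 11 regions and the other genes stay under it but for Ccl21a in region 9 and Mmrn1 in region 11.

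Over the 9 genes, 0 passed an adjusted p of 0.05 with edgeR, and 0.0100% of all 19935 probes tested passed, 2 probes that are neither among the 9 nor in the lists below. At an unadjusted p under 0.05 the count was 0 of 9, against 6.03% of all probes. Their median log2 fold change was -0.08, against 0.01 over all probes, and 8 of the 9 were negative. All 9 entered this test and none was removed by its filter on low counts. DESeq2 called 0 of 9, against 0.0853% of all probes, and limma-voom called 0 of 9 and 0 of all probes. At an unadjusted p under 0.05 both gave 0 of 9, against 1.94% of all probes with DESeq2 and 16.3% with limma-voom. DESeq2 gave an adjusted p for Vegfc alone of the 9 and left 8 without one. It left 17008 of the 19935 probes without one, so its share of all probes includes many that could not be called. On levels over background the difference of the median probe between the groups was -0.14, and that of Mmrn1 was positive and those of the other 8 were negative. By the exact permutation test only Pdpn had an unadjusted p under 0.05 (p = 0.0390, adjusted p = 0.738 over all probes), against 6.37% of all probes. The Pdpn difference was -0.80 on the log2 scale of levels over background, and -0.26 without the 3 shallow regions, where its count was 1 in each (exact permutation p = 0.321). Its unadjusted exact p was also over 0.05 with any of regions 1, 2, 3, 5, 6, 7, 10 and 11 left out, at 0.0571 to 0.0857. None of the 9 had groups that did not overlap, and 0.566% of all probes did. These tests treat regions as independent, though some come from the same mouse.

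The upper 95% bounds of the log2 fold changes of the 9 genes ran from 0.06 for Vegfd to 0.53 for Vegfc, and several moved when 1 region was left out. Without Pdpn-adjacent region 4 the bound was 0.55 for Flt4, against 0.19 with all regions, 0.46 for Lyve1, against 0.27, 0.46 for Ccl21a, against 0.29, and 0.69 for Mmrn1, against 0.28. That of Pdpn was then 0.05, against 0.16. The bound of Vegfd ran from 0.01 without region 3 to 0.24 without region 4, that of Flt4 was 0.11 without region 5, and that of Mmrn1 was 0.18 without region 5 and 0.43 without region 9. These counts include background. Were the background an equal part of the counts in both groups, a change of the transcript itself would be larger than the change of the count. That equality was not tested, and for a probe near background the change of the transcript cannot be read. In regions of tissue, fewer cells that make a transcript and less of it per cell cannot be told apart. Acta2 encodes SMA, the other protein used to choose regions, and its groups did not overlap. It had 0.952, 2.91 and 10.0 times background as its lowest, median and highest level in Pdpn-adjacent regions, against 23.1, 12.9, 16.7, 87.5 and 41.8 times in SMA-adjacent regions 1, 5, 6, 9 and 10. Its edgeR adjusted p was 0.205 and its DESeq2 adjusted p 0.00306, at an edgeR log2 fold change of -2.77 with an interval of -4.22 to -1.32. Postn, the gene of the reporter lineage, had a log2 fold change of -0.16 with an interval of -0.72 to 0.40 (edgeR adjusted p = 1.00).

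**Figure D3:**
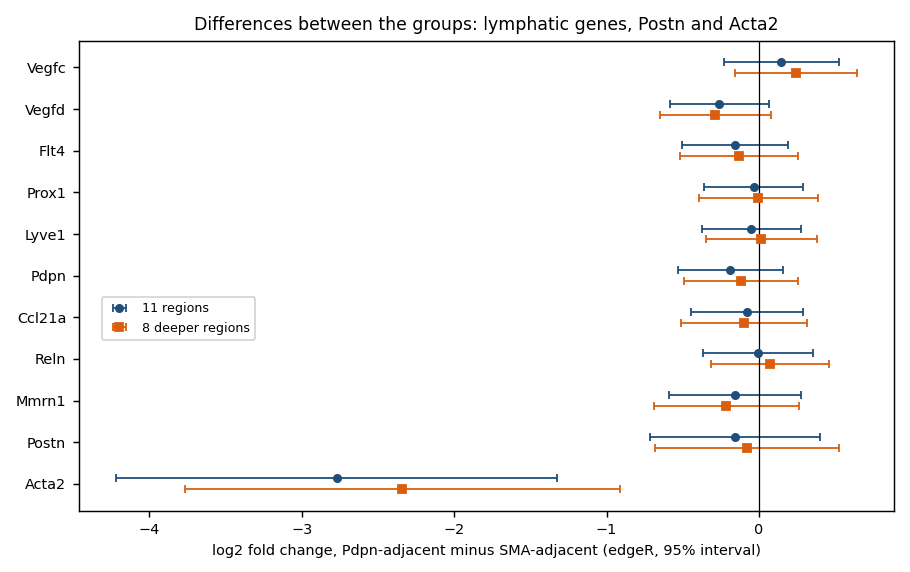
Log2 fold change, Pdpn-adjacent minus SMA-adjacent, with its 95% interval from edgeR for the 9 lymphatic genes, Postn and Acta2, from all 11 regions (circles) and from the 8 deeper regions (squares). The intervals of the 9 genes all include 0, and those of Acta2 do not.

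Of 20 further genes of lymphatic endothelium 0 were called in either direction by edgeR, and at an unadjusted p under 0.05 there were 0 higher and 5 lower, against 2.84% and 3.19% of all probes. Without region 4 these counts were 1 higher and 3 lower. Their median log2 fold change was -0.19. The lowest p-values were those of Nr2f2, Sox18 and Gja4, none of them past the threshold. For Nr2f2, a transcription factor of veins and lymphatics, the log2 fold change was -0.87 with an SE of 0.27 (adjusted p = 0.476 by edgeR). It was -0.66 with an SE of 0.23 for Sox18, a transcription factor upstream of Prox1 (adjusted p = 0.647), and -0.60 with an SE of 0.23 for Gja4, a gap junction protein of endothelium (adjusted p = 0.701). Blood endothelium expresses these 3 genes too. Ackr2, a chemokine-scavenging receptor of lymphatic endothelium, and Ecscr, a receptor of endothelial cells, had the highest median levels of the list. Ackr2 ran from 0.889 to 3.38 times background in Pdpn-adjacent regions, against 1.76 to 2.52 times in SMA-adjacent regions, and Ecscr from 0.889 to 2.43 times, against 2.16 to 3.05 times. Foxc2, needed for lymphatic valves, was below background in all 11 regions.

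Blood endothelial markers averaged 1.52, 1.94 and 3.20 times background in deeper Pdpn-adjacent regions 4, 7 and 8. In shallow regions 2, 3 and 11 they averaged 1.03, 1.31 and 1.11 times. The SMA-adjacent regions 1, 5, 6, 9 and 10 had 3.80, 1.68, 2.03, 3.71 and 4.24 times, so the groups overlapped. Of 12 genes 0 were called by edgeR, 0 were higher and 6 lower at an unadjusted p under 0.05 (3 lower without region 4), and the median log2 fold change was -0.50. Vwf, the clotting factor of blood endothelium, had 0.889 to 3.71 times background in Pdpn-adjacent regions, against 2.57 to 9.11 times in SMA-adjacent regions. Its log2 fold change was -1.58 with an SE of 0.35 (adjusted p = 0.0989 by edgeR). For Ptprb, a vascular phosphatase, it was -1.18 with an SE of 0.32 (adjusted p = 0.256), and for Tie1, a receptor of blood and lymphatic endothelium, -0.56 with an SE of 0.21 (adjusted p = 0.676). The adhesion gene Cdh5 had the highest median level of these markers, and a log2 fold change of -0.45 with an SE of 0.27 (adjusted p = 0.925). The 12 averaged 1.69 ± 0.81 times background over the 6 Pdpn-adjacent regions (mean ± SD), against 3.09 ± 1.16 times over the 5 SMA-adjacent ones. The 20 further lymphatic genes averaged 1.31 ± 0.38 times, against 1.74 ± 0.33 times. In deeper regions 4, 7 and 8 these 20 averaged 1.31, 1.44 and 1.99 times, against 1.30 to 2.04 times in SMA-adjacent regions. Both lists were highest in region 8 among the Pdpn-adjacent regions, at 3.20 and 1.99 times. This was not particular to endothelial genes. Macrophage, fibroblast and luminal epithelial markers were also highest there, at 2.74, 9.03 and 3.32 times. So was the median of all endogenous probes, at 1.53 times, against 0.889 to 1.31 times in the other Pdpn-adjacent regions. Adipocyte markers were highest in region 7, and myoepithelial and basal markers in region 11. The part of blood endothelium in the lymphatic values was not tested.

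The proteins that activate or receive VEGF-C and VEGF-D were measured alongside. Of 18 genes of this pathway 0 were called by edgeR, with 0 higher and 2 lower at an unadjusted p under 0.05 and a median log2 fold change of -0.11. The count lower was 6 without region 5 and 5 without region 8. CCBE1 and the protease ADAMTS3 together cut VEGF-C into its active form, and the levels of Ccbe1 and Adamts3 were 0.291 to 1.42 and 0.728 to 1.66 times background in Pdpn-adjacent, against 1.20 to 1.81 and 0.938 to 1.20 times in SMA-adjacent regions. Neither was above the floor in any region. The co-receptor gene Nrp2 had a log2 fold change of -0.43 with an SE of 0.21 (adjusted p = 0.827 by edgeR). It was -0.44 with an SE of 0.20 for Itga9, an integrin of lymphatic valves (adjusted p = 0.765), and -0.77 with an SE of 0.27 for Itgb1, its partner chain (adjusted p = 0.647). The highest levels belonged to Ctsd, a lysosomal protease, and Vegfa, the blood vessel growth factor. Ctsd had median levels of 10.6 times background in Pdpn-adjacent and 14.0 times in SMA-adjacent regions, and Vegfa had 3.99 and 3.95 times.

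Other signals that act on lymphatic growth, and the chemokines, were likewise not called. Of 20 other lymphangiogenic signals 0 were called by edgeR, with 0 higher and 1 lower (Tie1) at an unadjusted p under 0.05 and a median log2 fold change of -0.15. The count lower was 4 without region 5 or region 8 and 0 without region 9, and the count higher was 1 without region 4, 10 or 11. Ramp2, part of the adrenomedullin receptor, and Ephb4, an ephrin receptor of veins and lymphatics, had the highest median levels, at 3.03 and 3.00 times background in Pdpn-adjacent, against 5.72 and 3.81 times in SMA-adjacent regions. Fgfr3, a growth factor receptor, had a log2 fold change of 0.39 with an SE of 0.17 (adjusted p = 0.831 by edgeR), and the receptor Notch1 of -0.32 with an SE of 0.18 (adjusted p = 0.920). The list named for the CCL21 and CCL19 axis was broader than that axis. Its 6 measured genes were Ccl19, Ccr7, Ackr4, Ackr2, Cxcl12 and Cxcl13. Of these 0 were called and 0 had an unadjusted p under 0.05 (median log2 fold change -0.07), or 2 without region 8. Cxcl12, a stromal chemokine, had median levels of 2.46 times background in Pdpn-adjacent and 6.07 times in SMA-adjacent regions. Its log2 fold change was -0.39 with an SE of 0.33 (adjusted p = 0.984 by edgeR), and that of Ccl19, the second ligand of CCR7, was -0.18 with an SE of 0.19 (adjusted p = 1.00).

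**Figure D4:**
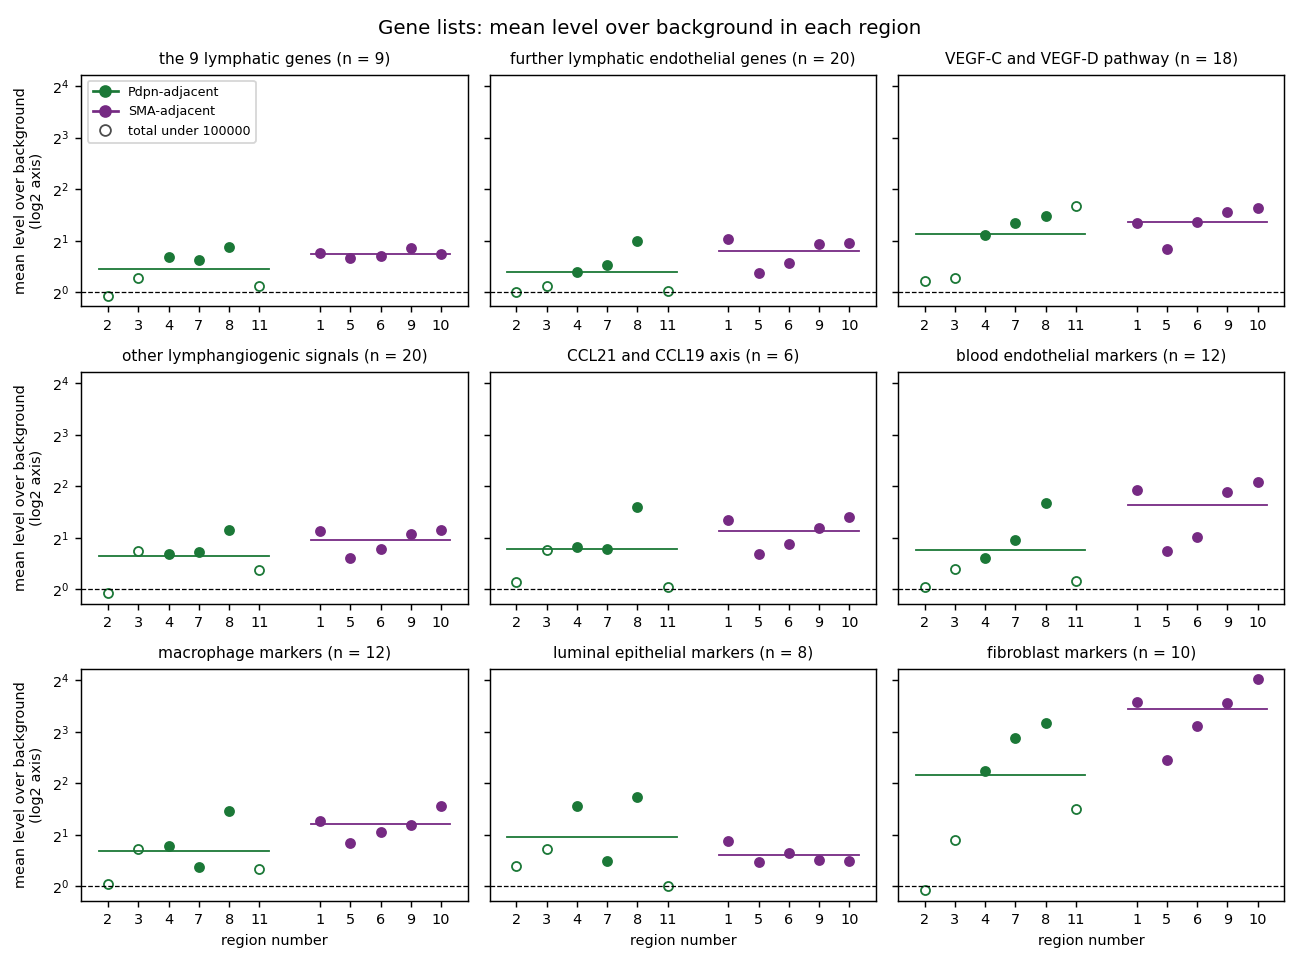
Mean level over background (log2 axis) of the 9 lymphatic genes and of 8 further gene lists by region, Pdpn-adjacent left and SMA-adjacent right; open circles are regions with a total under 100000, horizontal lines the mean of each group and the dashed line background. The 9 genes lie between 0.952 and 1.83 times background, and fibroblast markers reach 16.2 times.

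Markers of the other cells that the segments could hold differed in level between regions. Fibroblast markers averaged 0.952 to 9.03 times background in Pdpn-adjacent, against 5.48 to 16.2 times in SMA-adjacent regions, and adipocyte markers 0.952 to 38.3, against 18.3 to 50.1 times. The value of 0.952 in both is that of shallow region 2, where it is the level of a count of 1. Deeper regions 4, 7 and 8 had 4.70, 7.34 and 9.03 times for fibroblast and 30.9, 38.3 and 28.45 times for adipocyte markers. Myoepithelial and basal markers, a list that holds Acta2, averaged 1.07 to 3.34 times, against 3.00 to 15.2 times, and luminal epithelial markers 1.00 to 3.32 times, against 1.38 to 1.83 times. The lowest Pdpn-adjacent values of these lists came from shallow regions 2 and 11 too. At an unadjusted p under 0.05 edgeR gave 8 of 8 luminal markers higher, 6 of 10 fibroblast markers lower, 4 of 12 macrophage markers lower, 3 lower and 1 higher of 8 myoepithelial and basal markers and 0 of 6 adipocyte markers, and it called 0 in each list. Of all probes 2.84% were higher and 3.19% lower at that threshold. Several of these counts rest on single regions. Without region 4 they were 2 of 8 luminal markers higher, 1 of 10 fibroblast markers lower and 1 of 12 macrophage markers lower. The fibroblast count was 2 without region 10, and the macrophage count was 1 without region 7, 9 or 10 and 2 without region 1, 2 or 11. No myoepithelial or basal marker was higher without region 5, 6, 9 or 10. With limma-voom the counts were 3 luminal markers higher and 0 fibroblast and 0 macrophage markers lower. The smallest adjusted p-values were those of the prolactin receptor gene Prlr (0.0620, log2 fold change 0.88 with an SE of 0.17) and of the smooth muscle myosin Myh11 (0.0667, log2 fold change -2.51 with an SE of 0.49). Their part in the values of the 9 genes was not tested.

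The probes nearest to Vegfc in their pattern over the 8 deeper regions were Trmu, Zfp131 and Gm30447. Likeness was the root-mean-square difference of log2 levels over background, each centred on its own mean, among the 2380 other probes above the floor in at least 50% of those regions. It was 0.08 for Trmu and 0.09 for the other two, against a median of 0.38 over all those probes. These are the closest of 2380 probes, picked on the same values, so their closeness is no evidence of a link. In regions 7 and 8 Vegfc rests on 22 and 20 counts, and the part of counting error in the likeness was not tested. Trmu, a mitochondrial enzyme that modifies transfer RNA, had 2.67, 3.20 and 2.81 times background in Pdpn-adjacent regions 4, 7 and 8, against 2.25 to 2.49 times in the SMA-adjacent regions.

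On the mouse assembly GRCm38.p6 the Vegfc probe lies on chromosome 8 at 54159315 to 54159352, the Vegfd probe on chromosome X at 164385814 to 164385855, and the Flt4 probe on chromosome 11 at 49626315 to 49626350. The Prox1 probe lies on chromosome 1 at 190161982 to 190162021, the Lyve1 probe on chromosome 7 at 110859590 to 110859625, and the Pdpn probe on chromosome 4 at 143273991 to 143274025. The Reln probe lies on chromosome 5 at 22152433 to 22152470 and the Mmrn1 probe on chromosome 6 at 60944609 to 60944648. Each of these 8 sites lies within the span of its gene in the RefSeq table of that assembly. The Ccl21a probe has 5 sites on chromosome 4, and its entry names 9 gene symbols.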

How the data were processed

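From its values, the table deposited by the authors gives whole-number counts that were not normalized, 1 per probe and region. Per the labels' protocols, barcoded probes of the NanoString mouse Whole Transcriptome Atlas were hybridised, released by ultraviolet light from each segment and sequenced. The steps from reads to counts, the removal of duplicate reads and whether 1 was added to each count are not given in the sources used here. Of 12 segments collected per the labels, 11 were analysed here. Per the file headers, the assembly of the probe sites is GRCm38.p6.

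The 19965 endogenous probes were tested in edgeR 4.0.16 (R 4.3.3) after filterByExpr and TMM scaling, with the quasi-likelihood test, two-sided, Benjamini-Hochberg adjustment over all probes tested and a threshold of 0.05. The SE and interval are those of the test, or of its Poisson fit where edgeR takes its p from that bound. For levels over background, an exact permutation test was used (two-sided, 2 times the smaller tail) of 462 splits, smallest p 0.00433, run for every probe. DESeq2 1.42.0 and limma 3.58.1 were alternatives. Intervals of single counts are exact Poisson 95% intervals. Both tests were tested on simulated data. Depth ran from 22757 to 3086323 counts per region. Named genes are the 9, Acta2, Postn, in each list up to 3 genes of smallest p and the 2 of highest median level, and 3 probes of likest pattern; Foxc2, Ccbe1 and Adamts3 were added after their values were seen, and not every list gene that the rule allows is described. The members and lists were chosen with earlier results of these data known, so they are no independent evidence. Klk1, Ccl21b and Ccl21c had no probe under those names, and Bmp9 is the same gene as Gdf2.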

Additional observations from a re-analysis of the deposited data

Results flagged for a closer look

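Within a group of 4 to 10 regions, a highest or lowest value was picked out where its gap to the nearest one was large against the whole range (Dixon's 95% critical value), and chance alone picks out about 1 in 20 groups. Of 38 groups of values looked at, 3 were picked out. Mmrn1 was 2.67 times background in Pdpn-adjacent region 11, next to 1.15 times in the nearest region of that group, and rests on 3 counts. Mmrn1 was 1.73 times background in SMA-adjacent region 9, next to 1.07 times in the nearest region of its group, at 149 counts. The list named for the CCL21 and CCL19 axis averaged 3.02 times background in Pdpn-adjacent region 8, next to 1.78 times in the nearest region of that group. It also holds other chemokine genes. Over the Pdpn-adjacent regions Cxcl12 reached 8.05 times background, and the other genes of the list at most 3.38 times.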

How the results depend on the processing

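Across 21 alternatives edgeR or another tool called 0 of the 9 genes, and across 15 alternatives the exact permutation test called 0. The count of probes called over all probes was 2, and became 1 with upper-quartile scaling, 1 with scaling by negative probes, 0 with a filter at 2 times background (Vegfc alone of the 9 passed it), 17 with DESeq2, 0 with limma-voom, 57 after 1 was subtracted from every count and 1 without the 3 shallow regions. Leaving out 1 region gave 1 to 53 calls: 53 when region 5 (SMA-adjacent) was dropped, 13 when region 7 (Pdpn-adjacent) was, and 1 for each of regions 2, 3, 9, 10 and 11. List genes called were 0, then 3 with DESeq2 and 5 after subtracting 1, and 0 to 6 with 1 region left out (6 without region 5, 5 without region 7 and 1 without region 1). Pairs above the floor were 8 (8.08%, against 12.0% of all pairs), then 0 with the highest negative probe as floor (against 4.08%), 52 with 1 SD (52.5%, against 31.3%, which turns the order) and 7 without the shallow regions (9.72%, against 12.1%). Of 181 refitted log2 fold changes of the 9 genes 15 changed sign, and of 135 differences in level over background 5 did, the smallest adjusted p being 0.378.

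The fold changes that turned were, without the shallow regions, 0.015 for Lyve1 and 0.074 for Reln, and with no scaling factors 0.015 for Reln. With limma-voom they were 0.053 for Flt4, 0.13 for Ccl21a and 0.43 for Mmrn1, where the median of all probes was 0.14. With 1 region left out they ran from -0.012 to 0.22 for Vegfc, -0.28 to 0.067 for Prox1, -0.14 to 0.055 for Ccl21a, -0.17 to 0.10 for Reln and -0.25 to 0.069 for Mmrn1. Vegfc turned without Pdpn-adjacent region 4. Without the shallow regions the differences in level were 0.083 for Lyve1, 0.25 for Vegfc, 0.11 for Reln and -0.051 for Mmrn1, and with 1 region left out that of Mmrn1 ran from -0.050 to 0.35. The causes of these changes were not tested. No paired analysis was possible because the labels do not give the mouse of a region. Depth limits the 3 shallow regions most, where no count of the 9 genes exceeded 6.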

Other observations

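The share of Vegfc in the summed counts of Vegfc and Vegfd needs no scaling between regions, and it was looked at after the values were seen. It was 64.9%, 68.8% and 58.8% in the deeper Pdpn-adjacent regions 4, 7 and 8, against 55.1%, 58.4%, 53.9%, 55.0% and 54.3% in SMA-adjacent regions 1, 5, 6, 9 and 10. The exact binomial 95% interval was 59.5% to 70.0% in region 4 and 40.7% to 75.4% in region 8. That of region 5, the deepest SMA-adjacent region, was 53.8% to 62.9%. In region 7 the share rests on 22 counts of Vegfc and 10 of Vegfd, and in shallow regions 2, 3 and 11 on 1, 5 and 1 counts of Vegfc and 1, 6 and 1 of Vegfd. These intervals cover counting error only, background is part of both counts, and no test was made.

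In the 5 SMA-adjacent regions the level over background had coefficients of variation of 3.91% for Vegfc, 4.68% for Prox1, 6.80% for Vegfd and 9.23% for Pdpn. Their counting errors were 9.44%, 11.6%, 10.4% and 10.9%. Lyve1, Reln and Flt4 varied by 12.0%, 13.3% and 17.6%, against counting errors of 10.8%, 10.7% and 14.0%. A spread over 5 regions is itself uncertain. The same comparison was not made over all probes, so these values single out no gene. Mmrn1 and Ccl21a varied most, at 32.2% and 22.6% against counting errors of 14.8% and 11.6%.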
